A study of Mus musculus with 4 samples.

Results

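The 10 genes described here encode interferon-induced GTPases and proteins of antigen presentation, and were followed across 4 arrays of mouse calf muscle. They are the GTPase genes Iigp1, Gbp2 and Gbp3, the ubiquitin-like gene Isg15, the class I histocompatibility genes H2-D1, H2-K1 and B2m, the immunoproteasome subunit genes Psmb8 and Psmb9, and the peptide transporter gene Tap1. Every probe set that the platform annotation assigned to exactly 1 of these symbols was taken, which gave 16 probe sets for the 10 genes, out of 8251 genes with such a probe set. Another 3 probe sets named a member together with other class I genes and were left out. Of the 16, 14 had a signal of at least 100, the floor used throughout, on all 4 arrays, and all 16 reached it on at least 1.

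Each array carried RNA of gastrocnemius muscle pooled from 10 mice, and each group had 1 array. The groups were intact mice, mice 1 week after adrenalectomy, and adrenalectomized mice given 0.1 mg of the glucocorticoid cortisol into the abdomen either 3 h or 24 h earlier. Both cortisol groups thus also lacked adrenal glands, the time from surgery to injection was not given for them, and no vehicle-injected group was named. The sources used here do not give strain, sex, age or time of day. With 1 pool per group there was no replicate and no test, precision was limited by the number of arrays, and every ratio compares 2 pools. The arrays also ran in fluidics modules 1, 2, 3 and 4 in the order of the groups, so the module, the pool and the group cannot be told apart. The tissue label was met by its markers, since 13 or 14 of 15 fast fibre probe sets reached the floor on each array. The arrays differed in other tissue markers, with a slow fibre sum of 68536 after adrenalectomy against 19914 at 3 h and 18607 at 24 h, and an epidermis and hair sum of 1738 after adrenalectomy against 11459 at 3 h.

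Interferons bind cell surface receptors that activate Janus kinases, STAT proteins and interferon regulatory factors, which switch on genes with short response elements in their promoters. The guanylate-binding proteins and the immunity-related GTPases attack the membranes around intracellular microbes. Isg15 is joined to other proteins like ubiquitin. The immunoproteasome subunits replace constitutive ones and cut proteins into peptides, Tap1 helps carry the peptides into the endoplasmic reticulum, and heavy chains such as H2-D1 and H2-K1 present them at the cell surface together with the light chain B2m. Glucocorticoids are known to restrain inflammatory gene expression, and resting muscle fibres are known for low levels of class I molecules.

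The promoters of members that behaved differently on the arrays are shown to compare their response elements. RefSeq windows of 300 bases on build GRCm38.p6, from 250 bases before the start base to 49 after it, are printed 5' to 3', with 3 motifs in capitals. These are the interferon-stimulated response element (ISRE, searched as GAAA, any 2 bases, GAAA), the gamma-activated sequence (GAS, searched as TTCNNNGAA) and the NF-kB site. The NF-kB site was searched as GGG, a purine, any 2 bases, 2 pyrimidines and CC. Each motif was searched on both strands, with overlapping matches joined.
Isg15 (chr4:156200769-156201068, minus strand): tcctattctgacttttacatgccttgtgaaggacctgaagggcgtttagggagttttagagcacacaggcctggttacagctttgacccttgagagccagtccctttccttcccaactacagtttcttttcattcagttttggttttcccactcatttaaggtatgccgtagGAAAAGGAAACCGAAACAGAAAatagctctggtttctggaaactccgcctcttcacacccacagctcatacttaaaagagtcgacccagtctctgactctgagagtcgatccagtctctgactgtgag
Gbp2 (chr3:142620413-142620712, plus strand): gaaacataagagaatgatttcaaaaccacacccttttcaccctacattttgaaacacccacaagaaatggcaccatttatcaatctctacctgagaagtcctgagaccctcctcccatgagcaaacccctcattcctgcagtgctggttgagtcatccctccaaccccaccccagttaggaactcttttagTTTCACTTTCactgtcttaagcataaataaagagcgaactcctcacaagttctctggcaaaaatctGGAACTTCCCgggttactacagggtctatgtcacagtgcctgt
Gbp3 (chr3:142559794-142560093, plus strand): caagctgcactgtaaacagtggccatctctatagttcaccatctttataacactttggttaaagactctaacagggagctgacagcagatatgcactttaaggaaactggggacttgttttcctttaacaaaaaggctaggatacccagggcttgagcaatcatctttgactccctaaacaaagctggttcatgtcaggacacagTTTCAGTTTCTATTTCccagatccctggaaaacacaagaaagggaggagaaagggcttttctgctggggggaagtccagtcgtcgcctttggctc
B2m (chr2:122147437-122147736, plus strand): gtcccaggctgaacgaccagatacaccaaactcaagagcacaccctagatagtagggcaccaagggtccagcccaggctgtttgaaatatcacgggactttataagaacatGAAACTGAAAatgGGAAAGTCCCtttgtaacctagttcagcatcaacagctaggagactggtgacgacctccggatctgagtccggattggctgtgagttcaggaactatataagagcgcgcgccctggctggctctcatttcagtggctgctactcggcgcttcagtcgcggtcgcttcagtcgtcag
Psmb8 (chr17:34197945-34198244, plus strand): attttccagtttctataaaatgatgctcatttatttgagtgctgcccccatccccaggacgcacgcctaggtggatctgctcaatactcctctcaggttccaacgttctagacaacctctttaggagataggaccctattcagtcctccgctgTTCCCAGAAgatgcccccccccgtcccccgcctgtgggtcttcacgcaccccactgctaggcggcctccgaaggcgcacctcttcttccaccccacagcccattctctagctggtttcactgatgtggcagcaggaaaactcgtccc
H2-K1 (chr17:34000298-34000597, minus strand): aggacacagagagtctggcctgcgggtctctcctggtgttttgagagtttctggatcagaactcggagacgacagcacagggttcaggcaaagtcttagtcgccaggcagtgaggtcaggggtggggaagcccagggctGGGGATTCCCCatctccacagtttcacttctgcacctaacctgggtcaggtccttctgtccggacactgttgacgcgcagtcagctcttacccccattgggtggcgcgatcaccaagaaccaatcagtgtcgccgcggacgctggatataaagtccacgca

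The remaining member, Iigp1, was left out of the search, so no motif count here covers it. The ISRE letters lay in the promoters of 4 of 9 member genes searched. By window this was 4 of 11, against 3.45% of 32544 mouse promoters of the same length. Isg15 held 3 overlapping matches between positions -78 and -57, counted from the start base as 0. Gbp3 had 2 overlapping matches from -45 to -30 in the first of its pair of listed promoters and none in the other, Gbp2 had a match from -59 to -50, and B2m had a match from -139 to -130. A GAS match occurred in Psmb8 alone, from -97 to -89, and 8.33% of all promoters held these letters. NF-kB matches were present in B2m, Gbp2, H2-K1 and H2-D1, 4 of 9 genes. By window this was 5 of 11, with both overlapping H2-K1 windows counted, against 8.49% of all promoters. The glucocorticoid response element, searched as GNACA, any 3 bases, TGTNC, was found in 0 of 9 genes and in 0.476% of all promoters. Psmb9 and Tap1 are transcribed away from each other from starts with 225 bases between them, their windows share 275 bases, and neither window held a match. A match is a description of letters, and its absence says only that they are not in this window. Only exact matches were marked, so an element that departs from the letters searched, in H2-K1 or any other window, stays in lower case.

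**Figure D1:**
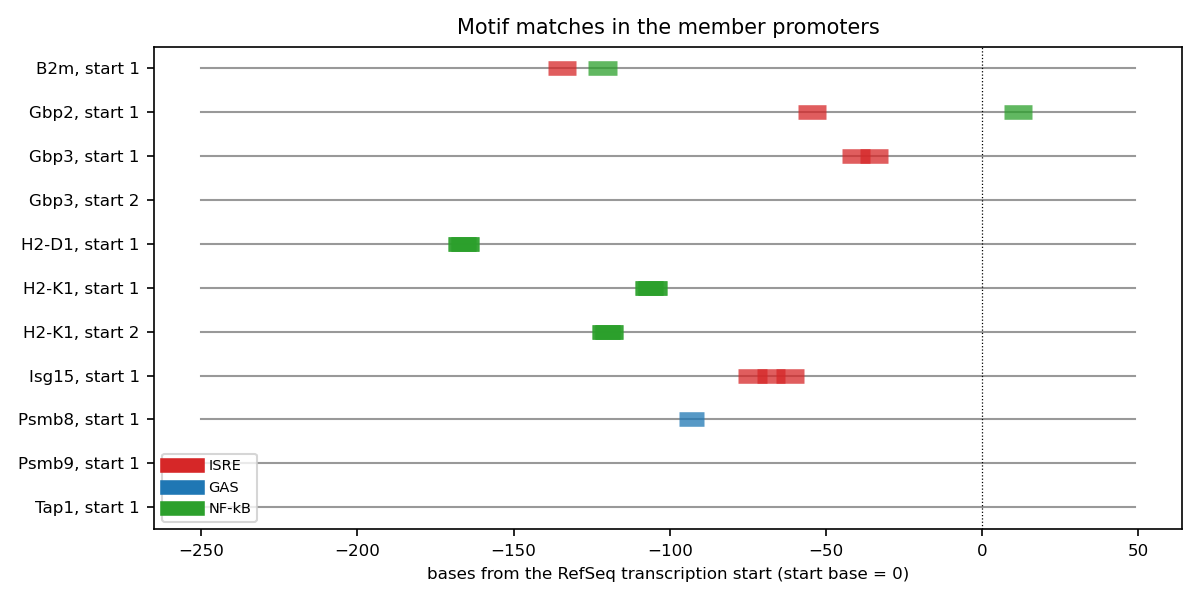
Motif matches in the 11 RefSeq promoters of 9 member genes, by distance in bases from the transcription start; coloured blocks are matches on either strand and grey lines the windows searched. ISRE matches sit between -78 and -30 in Isg15, Gbp2 and Gbp3 and further upstream in B2m, and the windows of Psmb9 and Tap1 are empty. Iigp1 was not searched.

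The GTPase genes had their lowest signals 3 h after cortisol and were back at or above the adrenalectomized level at 24 h. The main probe set of Iigp1, an immunity-related GTPase gene, read 535 in intact mice, 615 after adrenalectomy, 363 at 3 h and 689 at 24 h. Its other probe set, which carries a suffix marking probes shared with other transcripts, read 190.4, 159, 93.5 and 173 in the same order. Both probe sets of Iigp1 were thus lowest on the 3 h array, where the dimmer fell below the floor. Gbp2, a guanylate-binding protein gene, read 224 in intact mice, 268 after adrenalectomy, 168 at 3 h and 299 at 24 h. Gbp3, of the same family, read 363, 485, 313 and 562 in that order. Both Gbp genes were highest at 24 h and lowest at 3 h, as the main probe set of Iigp1 was.

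Isg15 differed from the GTPase genes in the place of the 3 h array. It read 121 in intact mice, 123 after adrenalectomy, 219.9 at 3 h and 154 at 24 h, so that the 3 h array stood highest and the 24 h array next. Its log2 ratio of 3 h over adrenalectomized was 0.84 and was 0.14 with a floor of 200, since the other arrays lie below that floor.

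The immunoproteasome subunit genes followed the order of the Gbp genes. Psmb8 read 343 in intact mice, 347 after adrenalectomy, 255 at 3 h and 431 at 24 h. Psmb9 read 158, 165, 124 and 259 in the same order. Each was lowest at 3 h and highest at 24 h, and the intact and adrenalectomized arrays differed little for either.

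Tap1 did not share the low 3 h value of Psmb9, whose promoter window it overlaps. Its main probe set read 263 in intact mice, 237 after adrenalectomy, 267 at 3 h and 352 at 24 h. Its other probe set, with a suffix for relaxed probe choice, was below the floor on 3 arrays, with 59.9, 29.0 and 87.7, and read 122 at 24 h. Both probe sets were highest at 24 h.

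The class I heavy chain genes were represented by 6 probe sets, of which 5 carry the suffix for shared probes, and class I genes are alike in sequence, so their signals may mix several of these genes. The brightest probe set of H2-D1 read 3233 in intact mice, 3161 after adrenalectomy, 3729.9 at 3 h and 4006 at 24 h. The other probe sets of H2-D1 read 2350.0, 2599.5, 2782 and 2837, and 195, 267, 316 and 335, in the same order. All 3 were highest at 24 h, and in all 3 the 3 h array came next. The brightest probe set of H2-K1 read 4187, 4132, 4688 and 4853, and a dimmer suffixed set read 593, 622, 728 and 783. The only H2-K1 set without the suffix read 127, 149, 115 and 256, with its low point at 3 h. The H2-K1 probe sets thus agreed on 24 h as the highest array and disagreed on 3 h. B2m, the light chain gene, read 4302 in intact mice, 4579 after adrenalectomy, 5153 at 3 h and 3648 at 24 h. B2m was the only member lowest at 24 h.

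**Figure D2:**
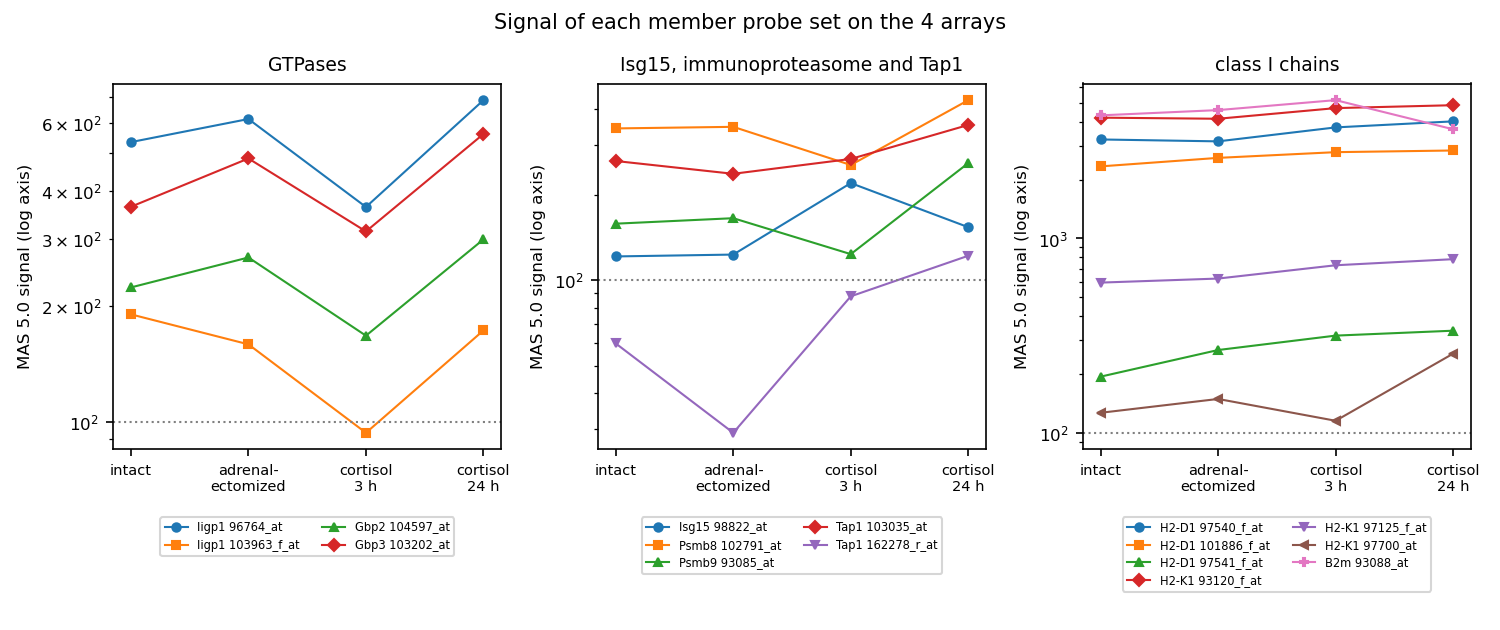
Signals of the 16 member probe sets on the 4 arrays (log axis), 1 line per probe set; the dotted line is the floor of 100. All 4 GTPase probe sets dip at 3 h, Isg15 peaks there, and B2m is the only line with its lowest point at 24 h.

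Over the 16 probe sets, 13 from 8 genes were highest on the 24 h array, against 32.6% of the 8683 probe sets that reached the floor on any array. Among the 13 was the suffixed Tap1 set, which reached the floor on that array alone. Being lowest at 3 h and highest at 24 h was the order of 6 probe sets from 6 genes, Iigp1, Gbp2, Gbp3, H2-K1, Psmb8 and Psmb9, against 11.4% of all. Probe sets of the same gene share a target, and the suffixed H2-D1 and H2-K1 sets may share targets across genes. They do not count as independent. Because the members were chosen with earlier results of these data known, these counts and those below do not test the members against the background. The counts below use a ratio of at least 1.5-fold, which is 0.58 on the log2 scale. The only error that the arrays themselves give is the SD of a log2 ratio from genes with a pair of probe sets, 0.24 for adrenalectomized over intact, 0.28 for 3 h and 0.32 for 24 h over adrenalectomized, and 0.31 for 24 h over 3 h. It holds no variation between mice or pools.

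Adrenalectomy alone was accompanied by small differences. Of 15 probe sets measured in adrenalectomized over intact muscle, 0 passed 1.5-fold, against 5.18% of 8189 probe sets in either direction, 2.76% higher and 2.42% lower. The share of higher ones among those 5.18% was 53.3%, and was 38.9% under median scaling and 91.7% under scaling to ribosomal protein genes, which moved the median of all probe sets from 0.01 to 0.26. The member log2 ratios ran from -0.26, for the suffixed Iigp1 set, to 0.46, for the dimmest H2-D1 set, with a median of 0.07. Gbp3 had a log2 ratio of 0.42 and Gbp2 one of 0.26.

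At 3 h over adrenalectomized muscle, the GTPase genes were lower and Isg15 was higher. Of 15 probe sets measured, 4 were lower and 1 higher by at least 1.5-fold, against 10.2% of 8263 probe sets in either direction, 4.87% lower and 5.29% higher. The share of higher ones among all those past 1.5-fold was 52.1%, and 36.5% under scaling to ribosomal protein genes. Iigp1 was 1.70-fold lower by its main set and at least 1.59-fold lower by the other, Gbp2 1.60-fold lower and Gbp3 1.55-fold lower. With a pseudocount of 50 in place of the floor, the count of lower sets was 1, the main set of Iigp1, and with a floor of 200 it was 2. Psmb8 and Psmb9 had log2 ratios of -0.45 and -0.42, short of the fold and over 1 error SD from 0. The 5 suffixed class I sets had ratios between 0.10 and 0.25, of which 0.10 turned negative under scaling to ribosomal protein genes. The unsuffixed H2-K1 set had a log2 ratio of -0.37, and B2m and Tap1 each had one of 0.17. The median over the members was 0.10, against -0.02 over all probe sets, and was -0.42 without the 7 suffixed sets. In the same comparison 10 of 12 epidermis and hair sets were higher and 9 of 9 slow fibre sets lower, and their part in the member ratios was not tested.

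At 24 h over adrenalectomized muscle, 15 of 16 probe sets had a ratio above 0, as did 51.8% of all, and the median was 0.30 against 0.01. The suffixed Tap1 set, among the 15, reached the floor at 24 h alone. In every comparison with that array it could only lie above 0. At least 1.5-fold higher were 2 sets, the unsuffixed H2-K1 set with a log2 ratio of 0.78 and Psmb9 with 0.65, against 5.92% of 8377 probe sets higher, 4.94% lower and 10.9% in either direction. The share of higher ones among the latter was 54.5%, and 41.3% under scaling to ribosomal protein genes. The Psmb9 ratio fell short of the fold under that scaling, with a floor of 200 and with the pseudocount, and the H2-K1 ratio did with a floor of 200. Tap1 had a log2 ratio of 0.57, just short, and B2m one of -0.33. The 4 GTPase sets lay between 0.12 and 0.21, within 1 error SD of the adrenalectomized array.

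Between 3 h and 24 h more members passed the fold than in any of the other 5 comparisons. Of 16 sets, 7 were at least 1.5-fold higher at 24 h and 0 lower, against 6.22% higher, 5.95% lower and 12.2% in either direction of 8387 probe sets. This comparison shares its 3 h and 24 h arrays with the comparisons above, so the low 3 h signals enter more than 1 of them. The unsuffixed H2-K1 set was 2.22-fold higher, Psmb9 2.09-fold, Iigp1 1.90-fold by its main set and at least 1.73-fold by the other, Gbp3 1.79-fold, Gbp2 1.78-fold and Psmb8 1.69-fold. These 7 sets kept their sign under the alternative scalings, but only quantile normalization could have turned one. The unscaled, median and ribosomal settings shift ratios by less than the fold, and floors and a pseudocount cannot turn a sign. With a floor of 200 the count was 3. Isg15 and B2m had log2 ratios of -0.52 and -0.50, and the 5 suffixed class I sets lay within 0.11 of 0. The median was 0.34 against 0.03 over all probe sets, and 0.83 without suffixed sets.

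**Figure D3:**
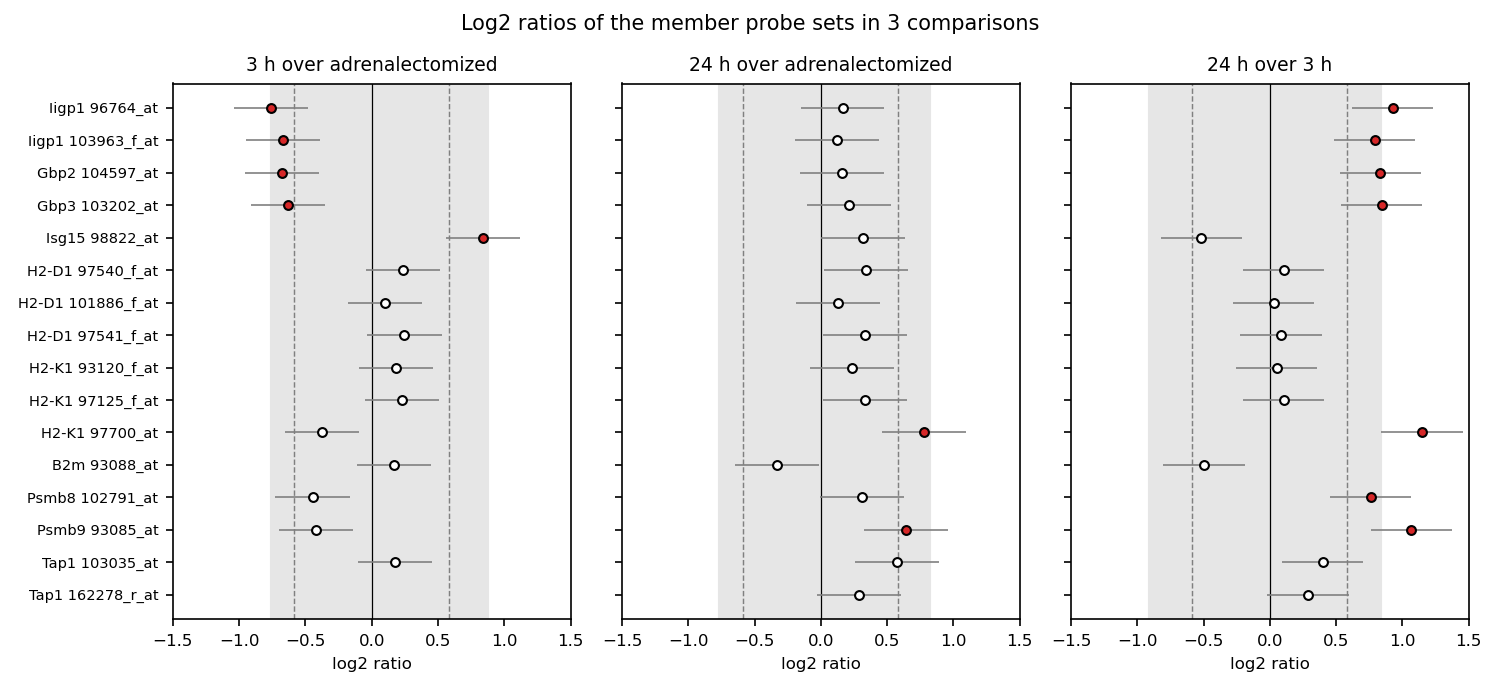
Log2 ratios of the 16 member probe sets in 3 comparisons; bars are 1 error SD from genes with a pair of probe sets, dashed lines mark 1.5-fold, grey bands hold the central 95% of all probe sets, and filled points are past 1.5-fold. At 3 h the GTPase sets lie left and Isg15 right, and at 24 h over 3 h 7 sets lie past the right dashed line.

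Against intact muscle, 4 of 16 sets were at least 1.5-fold higher at 24 h and 0 lower, against 6.42% of 8369 probe sets higher, 4.39% lower and 10.8% in either direction. These were the unsuffixed H2-K1 set at 2.02-fold, the dimmest H2-D1 set at 1.72-fold, Psmb9 at 1.64-fold and Gbp3 at 1.55-fold. Gbp3 fell short of the fold under median scaling (log2 ratio 0.55) and with the pseudocount (0.57), Psmb9 with the pseudocount and a floor of 200, and the unsuffixed H2-K1 set with a floor of 200. The count of higher sets was 3 under median scaling and 6 under scaling to ribosomal protein genes. The share of higher ones among all probe sets past the fold was 59.4%, and was 46.3% under median scaling and 83.3% under scaling to ribosomal protein genes. At 3 h over intact muscle, 2 of 15 sets were higher (Isg15, 1.81-fold, and the dimmest H2-D1 set, 1.63-fold) and 1 was lower (the suffixed Iigp1 set, at least 1.90-fold), against 10.2% of 8264 in either direction, 5.82% higher and 4.39% lower. There the share of higher ones was 57.0%, and 78.6% under scaling to ribosomal protein genes. The stricter limit of 2-fold was passed by 2 of 16 sets at 24 h over 3 h (background 3.37%) and by 1 of 16 at 24 h over intact (background 2.46%). It was passed by 0 sets in adrenalectomized over intact (background 0.806%), 3 h over adrenalectomized (3.12%), 24 h over adrenalectomized (2.65%) and 3 h over intact (2.98%).

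Other interferon-induced GTPase genes did not all share the order of the members. Of 12 listed, 7 were on the array and 4 reached the floor. Irgm2 read 363 in intact mice, 343 after adrenalectomy, 159 at 3 h and 305 at 24 h, which is 2.15-fold lower at 3 h than after adrenalectomy and 1.91-fold higher at 24 h than at 3 h. Gbp7 instead read 318, 363, 484 and 539.6, and Irgm1 was highest at 3 h, with 227, 207, 287 and 202. Igtp, the remaining gene, was lowest at 3 h, with 203, 178, 161 and 200, and had no ratio past 1.5-fold. Among 36 other interferon-stimulated genes listed, 24 were on the array. At 3 h, 14 of their probe sets were measured, 0 were higher and 1 was lower by 1.5-fold, which is near the 10.2% of all probe sets in either direction, and the median was 0.04. Ifit3, an interferon-induced gene that limits viral RNA, was the lower one, with 159 in intact mice, 152 after adrenalectomy, 90.3 at 3 h and 167 at 24 h. Ifitm2, an antiviral membrane protein gene, was 1.56-fold higher at 24 h than after adrenalectomy. Ifi35 read 188, 192, 287 and 162, and Rsad2, an antiviral enzyme gene, read 120.1, 179, 229 and 141, so that both peaked at 3 h as Isg15 did. Usp18, whose product removes Isg15 from proteins, stayed below the floor on all 4 arrays.

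Receptor and signalling genes were measured by 17 probe sets at 3 h, of which 0 were higher and 3 lower than after adrenalectomy, against 5.29% higher and 4.87% lower of all probe sets, with a median of 0.02. Tyk2, a kinase of the type I receptor, read 356 in intact mice, 355 after adrenalectomy, 84.9 at 3 h and 261 at 24 h. The receptor gene Ifnar1 read 165, 197, 129.5 and 121, and Socs1, a feedback inhibitor gene, read 247, 287, 191 and 245. The Ifnar1 and Socs1 log2 ratios of 3 h over adrenalectomized, -0.61 and -0.59, only just passed the fold. The transcription factor gene Irf1 read 329.7, 345, 271 and 306, with no ratio past 1.5-fold. Irf9, a subunit of the factor that binds the ISRE, read 354, 336, 420.5 and 265. Irf8, a transcription factor gene of myeloid cells, read 228, 161, 207 and 315. At 24 h it was 1.96-fold higher than after adrenalectomy and 1.38-fold higher than in intact mice. In 24 h over adrenalectomized muscle, 1 of 17 sets of this list was higher and 1 lower, against 5.92% higher and 4.94% lower of all. Ifng, the gene of interferon gamma, read at most 9.33 on any array, and Ifnb1 stayed below the floor too.

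Of 11 other class I presentation probe sets measured at 3 h over adrenalectomized muscle and 12 measured at 24 h, 0 passed 1.5-fold at either time, against 10.2% and 10.9% of all probe sets, so that about 1 would match the background. Psmb10, the remaining catalytic subunit of the immunoproteasome, read 410.1 in intact mice, 498 after adrenalectomy, 362 at 3 h and 468 at 24 h. The constitutive list holds Psmb5, Psmb6 and Psmb7, the subunits that the immunoproteasome replaces. It also holds Psme3 and Psme4, which are not among those subunits. Of its 6 probe sets, 0 passed 1.5-fold in any comparison. The background ran from 5.18% to 12.2% in either direction, so 0 of 6 is near it. The dimmer Psmb5 set came just short, 1.499-fold higher at 24 h than after adrenalectomy, where the brighter had a log2 ratio of -0.09. The median of the constitutive list at 24 h over 3 h was -0.03.

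**Figure D4:**
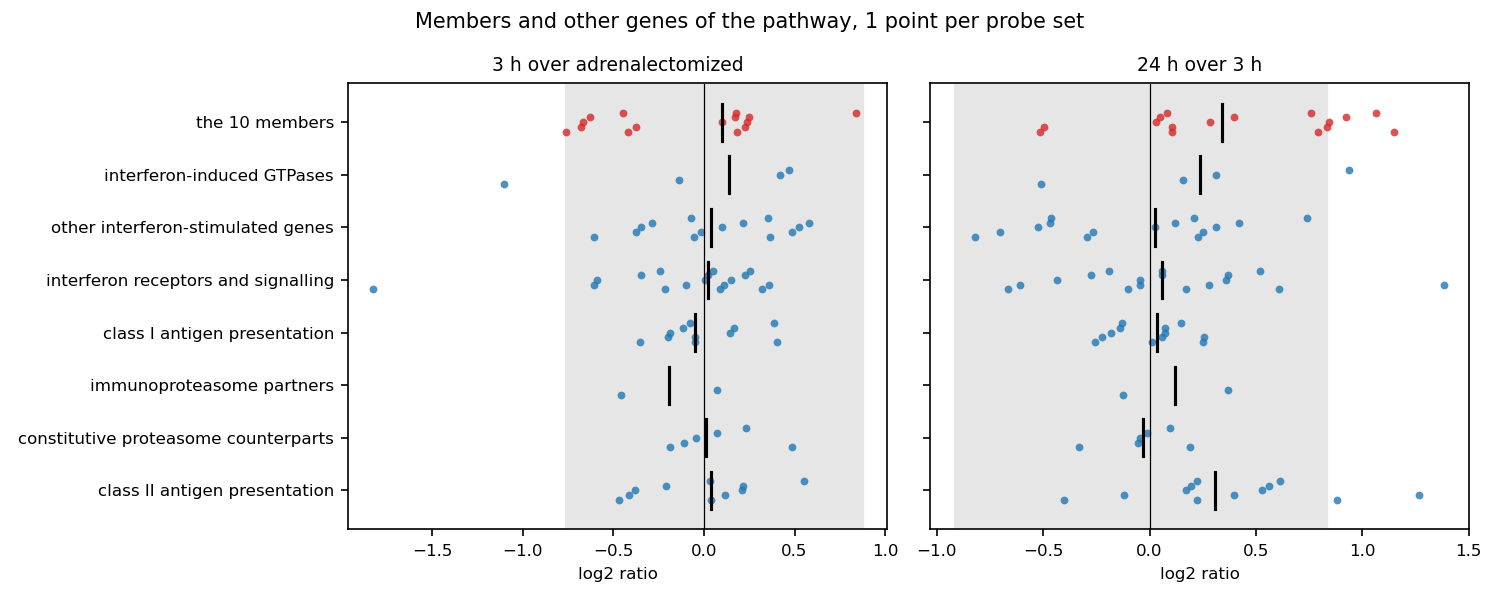
Log2 ratios of the members (red) and of 7 lists of other pathway genes (blue), 1 point per probe set measured; black bars are medians and grey bands the central 95% of all probe sets. The points of the constitutive proteasome list, with Psme3 and Psme4 among them, lie between -0.33 and 0.19 at 24 h over 3 h. The members spread from -0.52 to 1.15.

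In pooled tissue, fewer cells of a type and less RNA per cell cannot be told apart, and immune and endothelial cells carry many of these transcripts. The summed signal of 26 macrophage and dendritic cell probe sets was 9278 in intact mice, 10192 after adrenalectomy, 8616 at 3 h and 10054 at 24 h, and 8 of the 26 were below the floor on all arrays. This sum was lowest at 3 h. The median signal of the 26 sets was instead lowest at 24 h, with 214, 232, 205 and 200 in the same order. At 3 h over adrenalectomized muscle 2 of 18 macrophage sets were higher and 1 lower by at least 1.5-fold, against 5.29% higher and 4.87% lower of all probe sets. Their median was -0.26, with 13 ratios below 0 and 5 above. The lower one, Tyrobp, read 149, 236, 147 and 213 on the 4 arrays in order. The higher ones were a suffixed set of Csf1r, with 229, 228, 371 and 439.8, and Fcgr3, with 82.2, 96.8, 159 and 188. The brighter Csf1r set, without a suffix, went the other way at 3 h, with 833, 915, 630 and 730. The summed signal of 16 endothelial sets lay between 8101 and 9589, and at 3 h over adrenalectomized muscle 2 of 14 measured were higher and 3 lower, with a median of -0.15. The lower ones were Kdr, a vascular growth factor receptor gene, with 319, 406, 204 and 392 on the 4 arrays, Icam2 with 178, 207, 113 and 199, and Tek with 354, 391, 238 and 287. The higher ones were 1 of the Flt1 sets, with 502, 487, 773 and 429, and 1 of the Tie1 sets, with 704, 619, 957 and 923. Lymphocyte and natural killer sets summed to 5964.5, 4729, 6096 and 7188, and 21 of 33 were below the floor on all arrays, among them those of Cd3e, Cd3g and Cd8a. In intact mice the epidermis and hair sum was 1537 and the slow fibre sum 60200.5, and at 24 h the epidermis and hair sum was 3377. The part of these cells in the member signals was not tested.

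**Figure D5:**
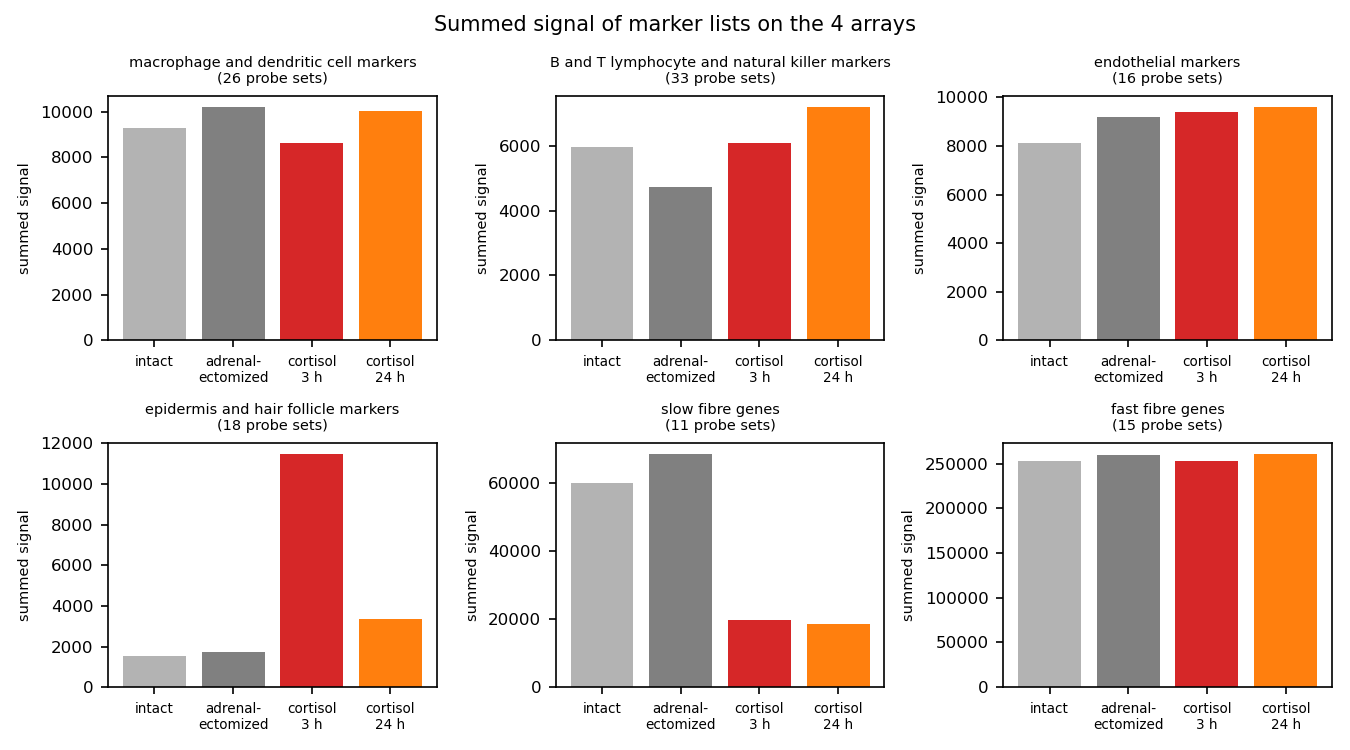
Summed signals of 6 marker lists on the 4 arrays, 1 bar per array. The macrophage and dendritic cell sum is lowest at 3 h, the epidermis and hair sum is highest there, and the fast fibre sums lie between 252538 and 260315.

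The probe sets most like the members over the 4 arrays came from other gene families. Likeness was the distance between log2 signals centred on each probe set's own mean, among 6442 probe sets at or above the floor on all arrays. Nearest to Isg15 were Igfbp3 and Cad, each at a distance of 0.05, then Hopx and Hpcal1 at 0.11 and Fgfr2 at 0.12. Nearest to the main Iigp1 set were Upp2 at 0.05, Adra2c at 0.06, Uts2r at 0.08, Homer3 at 0.09 and Sox7 at 0.10. With 4 points per profile, many unrelated genes can lie this close.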

How the data were processed

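The deposited values are linear intensity signals per probe set of the MG-U74Av2 array, made by the authors with MAS 5.0, per the labels. The deposited columns have a trimmed mean near 500, so the authors had scaled each array, and the sources used here give no further settings. Of 12488 probe sets, 66 controls were left out. Each array was scaled to a trimmed mean of 500 (2% off each end), signals under 100 were set to 100, and log2 ratios were taken where at least 1 of the 2 arrays reached 100. A fold is a lower bound where the dimmer array was under it. Symbols came from the platform annotation, with 10833 probe sets of 1 symbol, 396 of several and 1193 of none, and all 10 member gene IDs were found in the GRCm38.p6 gene table, used for names only. Members and lists were chosen with earlier results of these data known. List genes were named when past 1.5-fold in a main comparison, or as receptors, factors or counterparts of the pathway. Gbp7, Irgm1, Igtp, Ifi35, Rsad2, Usp18, H2-Aa, H2-DMa and Ciita were chosen after their values were seen. So were the brighter Csf1r set and the marker sets past 1.5-fold at 3 h. Alternatives were other scalings (unscaled, median, 41 ribosomal protein probe sets, quantile), floors of 50 and 200, a pseudocount of 50, 2-fold, and other choices of probe sets. No test was possible with 1 array per group. The code (Python 3.11.15, pandas 2.3.3, numpy 2.4.6) was tested on simulated data.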

Additional observations from a re-analysis of the deposited data

Results flagged for a closer look

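For 7 member probe sets the log2 ratios over adrenalectomized muscle had opposite signs at 3 h (below 0) and 24 h (above 0) and lay at least 1.5-fold apart. The log2 ratio at 24 h minus that at 3 h was 1.15 for the unsuffixed H2-K1 set, 1.07 for Psmb9, 0.93 for the main set of Iigp1 and 0.79 for its suffixed set. It was 0.84 for Gbp3, 0.83 for Gbp2 and 0.76 for Psmb8. Both times share the adrenalectomized array, each time had 1 array, and the difference was not tested.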

How the results depend on the processing

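With 1 array per group no replicate could be left out. No paired analysis was possible because each group had 1 array. Among member ratios past 1.5-fold, 0 were reversed under the scalings, floors and pseudocount. A floor or a pseudocount cannot turn the sign of a ratio. The unscaled, median and ribosomal settings shifted ratios by less than the fold, so only quantile normalization could have reversed one. A value counted as moved when it shifted by over 1 error SD, and a count or share when it shifted by over 1.5 times. Adrenalectomized over intact: under ribosomal scaling 2 member sets were higher, the median was 0.32 and 11.6% of all probe sets passed the fold. 3 h over adrenalectomized: 2 sets were higher with a floor of 50 and 0 with a floor of 200 or at 2-fold; 2 were lower with a floor of 200, 1 with the pseudocount and 0 at 2-fold; the median without suffixed sets was -0.42. 24 h over adrenalectomized: 1 set was higher under ribosomal scaling or with 1 set per gene, and 0 with a floor of 200 or at 2-fold. 24 h over 3 h: 3 sets were higher with a floor of 200 and 2 at 2-fold, and the median without suffixed sets was 0.83. 24 h over intact: 2 sets were higher with a floor of 200 or 1 set per gene and 1 at 2-fold. Member counts with sets of several symbols and without suffixed sets were alternatives added after the data had been seen. With sets of several symbols, 1 set was lower in each of the 3 comparisons at 24 h. 3 h over intact: 1 set was higher with a floor of 200, with the pseudocount, with 1 set per gene or without suffixed sets, and 0 at 2-fold; 2 were lower under median scaling, and 0 with a floor of 200, at 2-fold, with 1 set per gene or without suffixed sets. The share of all probe sets past the fold was 10.7%, 17.1%, 16.9% and 15.6% with a floor of 50 for adrenalectomized over intact, 24 h over adrenalectomized, 24 h over intact and 3 h over intact. With a floor of 200, which left fewer dim probe sets, it was 2.34%, 6.57%, 6.21%, 7.66%, 6.27% and 6.72% in the order adrenalectomized over intact, 3 h and 24 h over adrenalectomized, 24 h over 3 h, 24 h over intact and 3 h over intact. The causes of the other shifts were not tested. Isg15, Psmb9, the unsuffixed H2-K1 set and the suffixed Iigp1 set lay near the floor, where signal limits precision.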

Other observations

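Class II antigen presentation genes, which serve macrophages, dendritic cells and B cells rather than muscle fibres, had 12 probe sets measured at 24 h. Over intact muscle 4 were at least 1.5-fold higher and 0 lower, with a median log2 ratio of 0.53 against 0.03 over all probe sets, and the background was 10.8% in either direction. H2-Ob, among the 4, and the suffixed H2-DMa set reached the floor at 24 h alone. Both were thus measured only because they were high there, and neither could have been lower. H2-Oa, a chain of a class II chaperone, read 183 in intact mice, 226 after adrenalectomy, 263 at 3 h and 402 at 24 h. H2-Ob, its partner chain, was below the floor on 3 arrays and read 240.2 at 24 h, at least 2.40-fold higher than each of the others. Also past the fold were H2-Aa, with 814, 1005, 868 and 1254 in the same order, and H2-DMb2, with 58.3, 211, 310 and 234. The H2-Aa log2 ratio of 24 h over intact, 0.62, lay close to the limit. H2-DMb2 was thus highest at 3 h and below the floor in intact mice. Cd74, the invariant chain gene, read 2482, 3075, 3159 and 3618 and fell short of the fold. Ciita, of the same list, read 199, 192, 138 and 204. In the lymphocyte and natural killer cell list 3 of 11 probe sets were at least 1.5-fold higher at 24 h than in intact muscle and 0 lower, with a median of 0.33, and their part in the class II values was not tested.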
